A study of Mus musculus with 4 samples.

Results

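Adipocytes store fatty acids as triglyceride in a large lipid droplet and release them again on demand. PPARG and C/EBP transcription factors switch on the genes of this program, perilipins and CIDE proteins coat and fuse the droplet, and lipases and acyltransferases empty and fill it. Synovium, the lining of the joint, lies on fat pads in several joints, so synovial samples can contain fat cells. The genes described here are a fixed list of 37 adipocyte identity and lipid storage genes. Of these, 35 were measured among 22180 genes. Only probe sets with exactly 1 gene symbol were used, and the brightest of these over all arrays stood for its gene. Scd2 and Adrb3 were not analysed here.

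The signals came from 4 arrays of synovium dissected around the ankle (tibiotalar joint). The hosts were male mice of the C57BL/6J strain, 12 weeks old at induction. The 2 arthritic pools held 10 mice each, sampled on day 10, the labelled peak of inflammation in the serum transfer arthritis model. In this model, K/BxN serum carries arthritis-inducing autoantibodies into a healthy recipient. Per the protocols, those mice were given 150 µl serum into the peritoneum on days 0, 2 and 7, and the nonarthritic mice had phosphate buffered saline instead. The 2 nonarthritic pools held 3 mice each and are labelled day 0, although they too carry the K/BxN serum label. Arthritis, labelled day and pool size therefore cannot be told apart in this comparison. The series description calls the pools biological replicates. The limma p-values set each difference against the spread between pools, which limma draws towards the spread typical of all genes. That prior carried 5.98 degrees of freedom and the pools themselves 2, so the prior had the larger weight. Values are log2 signals, in which a difference of 1 is a 2-fold change.

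Most of the list was lower in arthritic synovium. The defining adipocyte genes Adipoq, Plin1, Cidec, Lep and Cebpa were all above background in nonarthritic synovium. Of the 35 measured members, 26 fell and 0 rose (limma, Benjamini-Hochberg adjusted p under 0.05 over all 22180 genes), while 6.62% of all genes fell and 8.72% rose. At an unadjusted p under 0.05, 28 members were lower and 1, Dgat1, was higher. Of all 22180 genes, 2823 were lower and 3640 higher at that threshold, the background for all unadjusted counts below. The median log2 fold change was -1.55 over the members, also with lower bounds in place of fitted values for dim genes, and 0.005 over all genes. Among the members, 23 fell at least 2-fold, as did 3.12% of all genes, and 13 fell at least 4-fold, as did 0.775% of all genes. In 30 of the 35 members both arthritic pools lay below both nonarthritic pools, as they did in 26.1% of all genes, and in 3 both lay above, as in 30.2% of all genes. Centring each array on its median over all probe sets gave 24 falling members, where 5.11% of all genes fell and 10.4% rose. That centring moved the share of rises among all called genes from 56.8% to 67.1%, and the median of all genes from 0.005 to 0.100. The other settings gave 25 to 27 falling members and 0 rising ones. The share of all genes tested that fell was 6.77% with centring over genes, 11.5% with dim genes left out, 7.13% with an intensity trend, 6.56% with probe sets averaged, 8.23% with quantile normalization and 4.63% with a replicate block. In the same order, 8.13%, 17%, 9.59%, 8.56%, 8.59% and 5.48% rose. The number of members that fell was 17 without nonarthritic pool 1, 13 without nonarthritic pool 2, 20 without arthritic pool 1 and 6 without arthritic pool 2. The share of all genes that fell in these fits was 2.63%, 0.942%, 1.88% and 0.473%, and the share that rose was 2.87%, 0.649%, 1.05% and 0.212%. Counts for fits that omit a pool keep this order below. In bulk tissue, fewer adipocytes and less RNA per adipocyte cannot be told apart.

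**Figure D1:**
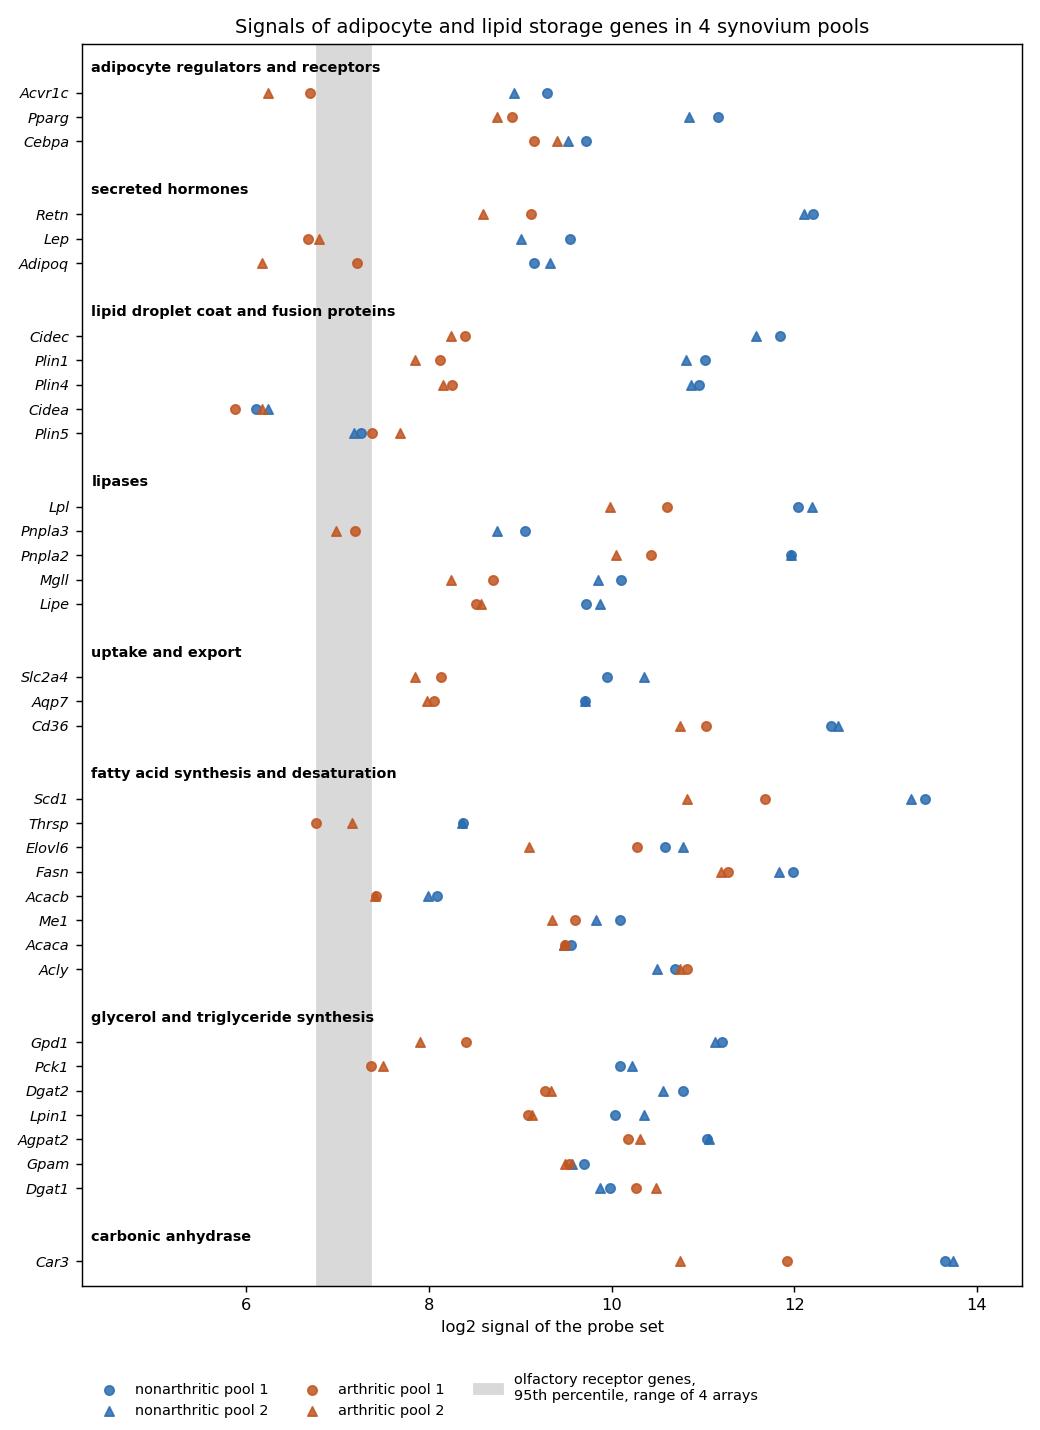
Log2 signal (horizontal axis) of each measured member in nonarthritic pools (blue) and arthritic pools (orange); circles are pool 1 and triangles pool 2, and the grey band spans the 95th percentiles of olfactory receptor genes on the 4 arrays (6.77 to 7.36). The arthritic points of Cidec, Retn, Gpd1 and Plin1 lie well to the left of their nonarthritic points, and those of Acaca and Cidea overlap them.

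The promoters of 5 of the members that fell together, among them the regulator Pparg, are shown because they are the DNA stretches on which adipocyte transcription factors are known to act. Each is the 250 bases before an annotated start from RefSeq (build GRCm38.p6), written 5′ to 3′ on the strand of the gene. Capitals mark TTGCNNAA, a core sequence recognised by C/EBP factors, and the CCAAT box, each read on both strands. The hexamer AGGTCA was searched in the same way and is in none of the 5 windows shown. The windows are chr6:113434765-113435014 (minus strand) for Cidec, chr7:79732777-79733026 (minus) for Plin1, chr6:29059971-29060220 (plus) for Lep, chr16:23146286-23146535 (plus) for Adipoq and chr6:115421816-115422065 (plus) for Pparg. Cidec has 2 annotated windows and Pparg has 3, and for each the window with the C/EBP core is shown. The Pparg windows left out hold AGGTCA, at 28 and at 9 bases before the start. The 5 windows are not a cross-section, because those of Cidec, Plin1, Lep and Pparg are the only windows of falling members with TTGCNNAA.
Cidec: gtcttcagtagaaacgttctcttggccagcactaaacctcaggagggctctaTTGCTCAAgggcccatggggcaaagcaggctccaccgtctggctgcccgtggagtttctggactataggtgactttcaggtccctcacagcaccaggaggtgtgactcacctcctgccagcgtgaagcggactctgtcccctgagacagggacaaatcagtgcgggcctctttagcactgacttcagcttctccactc
Plin1: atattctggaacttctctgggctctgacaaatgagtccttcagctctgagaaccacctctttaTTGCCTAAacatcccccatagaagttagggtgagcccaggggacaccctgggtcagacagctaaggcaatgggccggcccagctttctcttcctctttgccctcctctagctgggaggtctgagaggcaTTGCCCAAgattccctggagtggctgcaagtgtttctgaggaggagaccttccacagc
Lep: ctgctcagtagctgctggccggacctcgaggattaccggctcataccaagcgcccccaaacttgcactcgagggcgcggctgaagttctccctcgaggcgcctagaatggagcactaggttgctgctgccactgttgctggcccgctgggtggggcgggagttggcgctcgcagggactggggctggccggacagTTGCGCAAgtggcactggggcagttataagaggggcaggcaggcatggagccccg
Adipoq: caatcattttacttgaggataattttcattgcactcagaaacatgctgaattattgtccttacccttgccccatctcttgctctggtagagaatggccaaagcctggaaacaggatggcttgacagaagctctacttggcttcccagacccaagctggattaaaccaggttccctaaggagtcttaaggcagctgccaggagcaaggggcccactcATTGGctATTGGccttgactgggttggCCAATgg
Pparg: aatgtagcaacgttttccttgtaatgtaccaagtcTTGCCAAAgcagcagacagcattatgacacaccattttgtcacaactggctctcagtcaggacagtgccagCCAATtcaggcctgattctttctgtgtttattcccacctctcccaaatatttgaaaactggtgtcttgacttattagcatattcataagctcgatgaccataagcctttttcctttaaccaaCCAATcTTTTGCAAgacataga

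Of the 26 members that fell, 20 had a promoter in the RefSeq table, in 27 windows, and 7 of the other 9 measured members had one, in 10 windows. TTGCNNAA stood in 4 of the 27 windows (14.8%), namely those of Cidec, Plin1, Lep and Pparg, in 0 of the 10, and in 9.56% of all 32851 windows of this length. In Plin1 it occurred at 187 and at 58 bases before the start, and in Lep at 55 bases before it. AGGTCA was present in 6 of the 27 windows, in 4 of the 10, and in 14% of all windows. CCAAT was found in 9 of 27, 3 of 10 and 33.8% of all, and 3 copies of it stood in the Adipoq window. CACGTG, the E box read by the lipogenic factor ChREBP, was in 2 of 27, 0 of 10 and 6.02% of all. The full PPARG and RXR element, a direct repeat of AGGTCA with 1 base between the copies, was in 0 member windows and in 0.0335% of all windows. These are letter matches and are not measurements of binding.

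Among the regulators, Pparg fell and Cebpa did not pass the test. Pparg, the nuclear receptor that drives adipocyte differentiation, read 11.17 and 10.85 in nonarthritic pools 1 and 2 and 8.91 and 8.75 in arthritic pools 1 and 2. The groups lay far apart, and Pparg fell 4.53-fold (log2 fold change -2.18 ± 0.18 SE, adjusted p = 0.000329). Cebpa, its partner in the adipocyte program, read 9.72 and 9.52 against 9.15 and 9.40. Both arthritic values of Cebpa were lower, but the difference did not pass (-0.34 ± 0.17, adjusted p = 0.233). The fall of Pparg was larger than that of Cebpa by 1.83 on the log2 scale, a pair chosen after the values were seen. Splits of 2 against 2 pools give an exact 2-sided permutation p of 0.333 for this difference, the smallest possible, and the same holds for the other pairs below. Acvr1c, the activin-type receptor ALK7 that restrains lipolysis in fat cells, read 9.29 and 8.93 against 6.70 and 6.24. Its arthritic mean lay under the 95th percentile of olfactory receptor genes, which are taken as not expressed here and stand for background. Acvr1c was therefore at least 4.77-fold lower (adjusted p = 0.000318), reckoned from that percentile on each array. Pparg and Acvr1c passed without either nonarthritic pool and without arthritic pool 1, and neither passed without arthritic pool 2 (adjusted p = 0.0552 and 0.0534).

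All 3 measured adipocyte hormone genes fell. Retn, which encodes resistin, read 12.21 and 12.11 in nonarthritic pools and 9.12 and 8.59 in arthritic pools, a 9.88-fold fall (-3.31 ± 0.20, adjusted p = 0.000136). Lep, which encodes the satiety hormone leptin, read 9.55 and 9.01 against 6.67 and 6.79. Adipoq, which encodes adiponectin, read 9.15 and 9.33 against 7.21 and 6.17. The nonarthritic values of all 3 genes stood above all arthritic ones, as they did in 26.1% of all genes. The arthritic means of Lep (6.73) and Adipoq (6.69) lay under the olfactory percentile, so these defining adipocyte genes were not shown to be above background in arthritic synovium. Lep was at least 5.37-fold lower (adjusted p = 0.000321) and Adipoq at least 4.48-fold lower (adjusted p = 0.00145). Among the fits that omit a pool, Adipoq passed only without arthritic pool 1 (adjusted p = 0.0544, 0.0972, 0.0279 and 0.0507). Retn passed in all 4 of these fits, and Lep failed only without arthritic pool 2 (adjusted p = 0.0572).

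Of the 5 droplet protein genes, 3 fell and 2 did not pass. Cidec, which fuses droplets into the large one of white fat, read 11.85 and 11.58 in nonarthritic pools and 8.39 and 8.24 in arthritic pools. This 10.6-fold fall (-3.40 ± 0.17, adjusted p = 7.77e-05) was the largest fitted value among the members, of which Acvr1c, Lep and Adipoq have only lower bounds. Plin1, the perilipin that guards the adipocyte droplet against lipases, read 11.02 and 10.82 against 8.12 and 7.85 (-2.94 ± 0.17, adjusted p = 0.000123). Plin4, another droplet coat protein of white fat, read 10.96 and 10.87 against 8.25 and 8.15 (-2.71 ± 0.16, adjusted p = 0.000117). These 3 genes fell in all 4 fits with a pool left out. Plin5, the perilipin of oxidative tissue such as heart and muscle, read 7.26 and 7.18 against 7.38 and 7.68 (0.31 ± 0.17, adjusted p = 0.281). Plin5 was near background in nonarthritic synovium, and in pool 2 it lay under the olfactory percentile of its array (7.18 against 7.36). A fall of Plin5 could therefore hardly have been seen. Plin4 and Plin5 are adjacent protein-coding genes in the RefSeq table of GRCm38.p6. With that limit, their log2 fold changes differed by 3.02 (exact permutation p = 0.333). Cidea, the CIDE protein known from brown fat, had group means of 6.17 and 6.02, both under the olfactory percentile, so no fold is given for it.

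**Figure D2:**
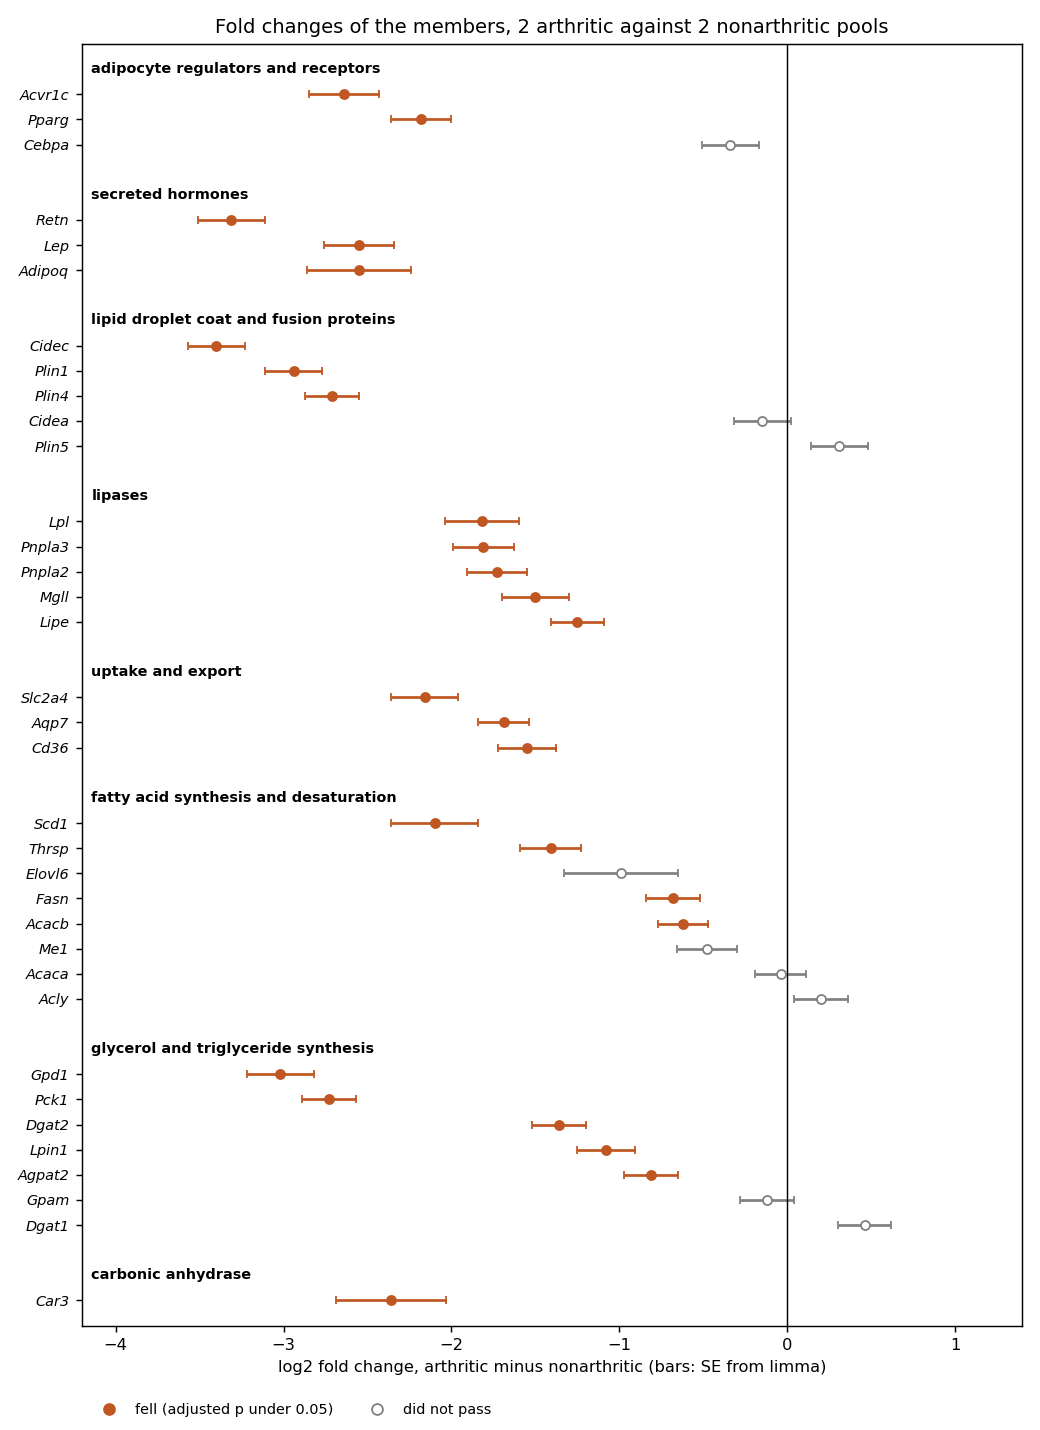
Log2 fold change of each member, arthritic minus nonarthritic (n = 2 pools a group), with the SE from limma as bars; filled orange points fell at an adjusted p under 0.05 and open grey points did not pass. The points of the lipases lie between -1.82 and -1.25, while fatty acid synthesis genes range from -2.10 for Scd1 to 0.20 for Acly.

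All 5 genes in the lipase group fell. Lpl, lipoprotein lipase, which frees fatty acids from blood lipoproteins for uptake, read 12.04 and 12.19 in nonarthritic pools and 10.61 and 9.98 in arthritic pools (-1.82 ± 0.22, adjusted p = 0.0016). Pnpla2 encodes ATGL, which removes the first fatty acid from stored triglyceride, and read 11.96 and 11.97 against 10.43 and 10.05 (-1.73 ± 0.18, adjusted p = 0.0008). Lipe, hormone-sensitive lipase, the next enzyme in that chain, read 9.72 and 9.87 against 8.51 and 8.57 (-1.25 ± 0.16, adjusted p = 0.00182). Mgll, which cleaves the remaining monoglyceride, read 10.10 and 9.85 against 8.70 and 8.24 (-1.50 ± 0.20). Pnpla3, a nutritionally regulated relative of ATGL, read 9.05 and 8.75 against 7.19 and 6.98 (-1.81 ± 0.18). In all 5 both arthritic pools lay below both nonarthritic pools, as they did in 26.1% of all genes. Genes for each step from triglyceride to glycerol thus fell, Lipe by the least. Omitting a pool left 3, 1, 4 and 0 of the 5 past the threshold. A second probe set of Lpl gave a log2 fold change of -1.54.

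The 3 transport genes fell as well. Slc2a4, the insulin-regulated glucose transporter GLUT4, read 9.95 and 10.35 in nonarthritic pools and 8.13 and 7.85 in arthritic pools (-2.16 ± 0.20, adjusted p = 0.000462). Aqp7, the glycerol channel of fat cells, read 9.71 in both nonarthritic pools and 8.06 and 7.98 in arthritic pools (-1.69 ± 0.15, adjusted p = 0.000468). Cd36, a fatty acid transporter also carried by macrophages and endothelium, read 12.40 and 12.48 against 11.03 and 10.75 (-1.55 ± 0.17, adjusted p = 0.000958). Aqp7 was the tightest of the 3 within groups. In all 3 both arthritic pools lay below both nonarthritic pools, as in 26.1% of all genes. The fits that omit a pool called 3, 2, 3 and 0 of them.

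Genes of fatty acid synthesis were divided: 4 of 8 fell and 4 did not pass. Scd1, the desaturase that makes oleate, fell from 13.43 and 13.28 to 11.68 and 10.83 (-2.10 ± 0.26, adjusted p = 0.00183). Scd1 belongs to a family of similar copies, which can share probes. Thrsp, the lipogenic factor Spot 14, read 8.37 and 8.36 against 6.76 and 7.16 (-1.41 ± 0.18, adjusted p = 0.00212). Fasn, fatty acid synthase, read 11.99 and 11.83 against 11.27 and 11.20, a 1.6-fold fall (adjusted p = 0.0256). Acly, which makes cytosolic acetyl-CoA, read 10.69 and 10.50 against 10.83 and 10.75 (0.20 ± 0.16, adjusted p = 0.489). Acaca, the acetyl-CoA carboxylase that feeds synthesis, read 9.56 and 9.48 against 9.49 and 9.48 and overlapped between groups. Its fold change was -0.04 ± 0.15, and its sign turned when arrays were centred on their medians over all probe sets (0.06) and without nonarthritic pool 1 (0.01). Acacb, the mitochondrial carboxylase that restrains fatty acid oxidation, read 8.09 and 7.99 against 7.42 and 7.41 (-0.62 ± 0.15, adjusted p = 0.0308). Fasn and Acacb did not pass with that centring, and neither passed with any pool left out.

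Elovl6, the elongase that acts after fatty acid synthase, read 10.59 and 10.78 in nonarthritic pools and 10.28 and 9.10 in arthritic pools. Arthritic pool 2 was low and arthritic pool 1 was near the nonarthritic values (-0.99 ± 0.34, adjusted p = 0.0886). Its log2 fold change was -1.58 without arthritic pool 1 and -0.41 without arthritic pool 2. Elovl6 passed without arthritic pool 1 (adjusted p = 0.0442) and with dim genes left out (0.0439). Me1, malic enzyme, a source of the NADPH that synthesis consumes, read 10.09 and 9.83 against 9.60 and 9.35 (-0.48 ± 0.18, adjusted p = 0.111). Me1 passed with quantile normalization again (adjusted p = 0.0369). Of the synthesis genes 0, 0, 2 and 0 passed when a pool was omitted.

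Of the 7 glycerol and triglyceride synthesis genes, 5 fell and 2 did not pass. Gpd1, which makes glycerol phosphate from a glycolytic intermediate, read 11.21 and 11.13 in nonarthritic pools and 8.41 and 7.90 in arthritic pools (-3.02 ± 0.20, adjusted p = 0.00016). A dimmer second probe set of Gpd1 gave -0.88, and the mean of both gave -1.95. Pck1, which makes it from pyruvate by glyceroneogenesis, read 10.09 and 10.22 against 7.36 and 7.50 (-2.73 ± 0.16, adjusted p = 0.000117). Both enzymes that supply the glycerol backbone thus ranked 48 and 66 from the lowest fitted fold change of all genes, dim genes included. Of the enzymes that attach fatty acids to it, Gpam, for the first step, read 9.70 and 9.57 against 9.53 and 9.49 (-0.12 ± 0.16, adjusted p = 0.67). Agpat2, the next acyltransferase, read 11.05 and 11.07 against 10.18 and 10.31 (-0.81 ± 0.16, adjusted p = 0.0115). The phosphatase Lpin1, lipin 1, read 10.04 and 10.35 against 9.09 and 9.13 (-1.08 ± 0.17, adjusted p = 0.00502).

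The last step is carried out by either of 2 unrelated enzymes, Dgat2 and Dgat1. Dgat2 read 10.78 and 10.56 in nonarthritic pools and 9.27 and 9.34 in arthritic pools and fell 2.58-fold (-1.36 ± 0.16, adjusted p = 0.00144). Dgat1 read 9.98 and 9.87 against 10.27 and 10.49, higher in both arthritic pools, and did not pass (0.46 ± 0.16, adjusted p = 0.108). The log2 fold changes differed by 1.82 (exact permutation p = 0.333). Mogat2, the monoacylglycerol acyltransferase gene next to Dgat2, rose by 0.74 ± 0.16 on the log2 scale (adjusted p = 0.017). Mogat2 was near background in nonarthritic synovium (7.10 and 7.21), and in pool 2 it lay under the olfactory percentile of its array (7.36). When a pool was omitted, 4, 3, 2 and 2 of the 7 glycerol and triglyceride genes passed, Gpd1 and Pck1 in each fit.

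Car3, carbonic anhydrase III, abundant in rodent fat and slow muscle, read 13.65 and 13.74 in nonarthritic pools and 11.92 and 10.75 in arthritic pools. It fell 5.13-fold (-2.36 ± 0.33, adjusted p = 0.00295), and a second probe set gave -2.49. The arthritic pools stood 1.17 apart, and Car3 passed without arthritic pool 1 but not without nonarthritic pool 1 (adjusted p = 0.0747), nonarthritic pool 2 (0.124) or arthritic pool 2 (0.0552).

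Skeletal muscle genes fell alongside the members. Of 16 muscle genes, 15 fell and 0 rose, with a median log2 fold change of -2.83, and 0 rose at an unadjusted p under 0.05. Their summed signal on the log2 scale was 15.42 and 15.81 in nonarthritic pools and 12.92 and 12.51 in arthritic pools. Ckm, muscle creatine kinase, fell by 2.83 on the log2 scale, and its arthritic mean of 8.87 was above the olfactory percentile. The corresponding sums of the members were 16.28 and 16.24 against 14.82 and 14.48. Muscle fibres are also known to express at least 10 of the members, a set drawn up after the values were seen. They are Slc2a4, Plin5, Car3, Lpl, Cd36, Lpin1, Pnpla2, Mgll, Acacb and Gpd1. The set may be incomplete, and muscle may express some of the other 25 members too. Of the 10 listed, 9 fell (median -1.64). Of the other 25 members 17 fell (median -1.41), among them Cidec, Retn, Plin1, Plin4, Lep and Adipoq. How much of the fall of the shared genes came with the muscle genes was not tested.

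The pools of a group gave another view of these genes. All 16 muscle genes read higher in nonarthritic pool 2 than in pool 1, with a median difference of 0.35. Of the members, 12 of 35 did so, with a median difference of -0.09, and of all genes 9910 of 22180 did, with a median of -0.03. Lep (-0.54), Acvr1c (-0.36), Pparg (-0.32), Pnpla3 (-0.30) and Cidec (-0.27) were lower in pool 2, opposite to muscle genes. So was Mgll (-0.25), which is shared with muscle. Among the 12 that were higher were the shared Slc2a4 (0.40) and Lpin1 (0.31). Outside the shared set, Elovl6 (0.19), Adipoq (0.18), Lipe (0.15) and Pck1 (0.13) were higher too. Of the 10 members shared with muscle 6 were higher in nonarthritic pool 2, and of the other 25 members 6 were. Between the arthritic pools, 15 of 16 muscle genes, 24 of 35 members and 10848 of 22180 genes read lower in pool 2. Differences there reached -1.18 for Elovl6, -1.17 for Car3 and -0.85 for Scd1, while Adipoq lay under the olfactory percentile of its array in pool 2 (6.17 against 6.94). These counts are descriptions of 2 pools a group and carry no test.

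**Figure D3:**
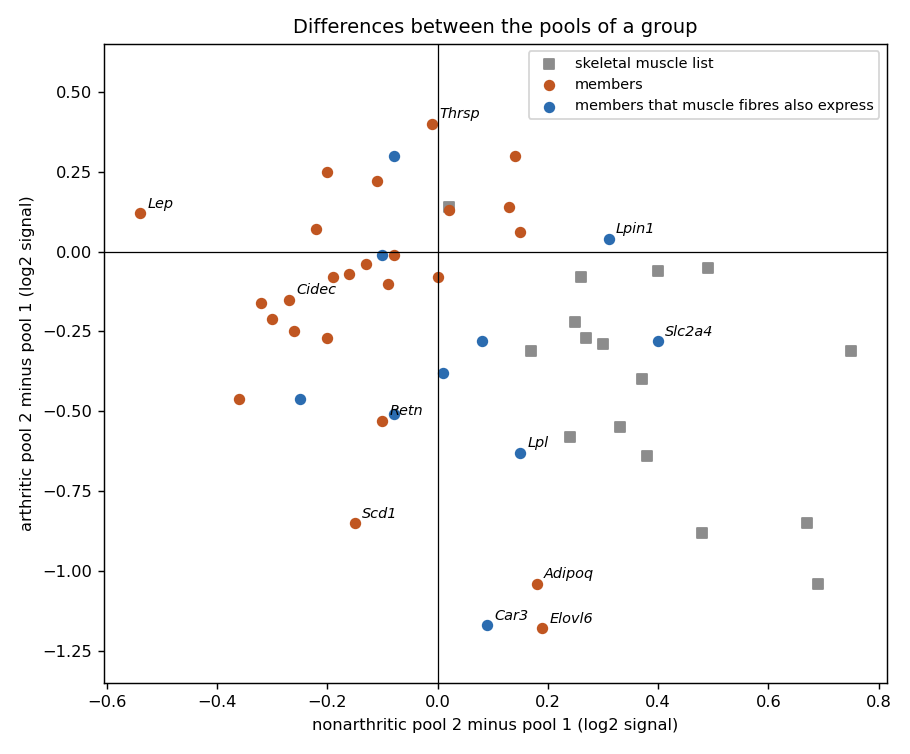
Difference in log2 signal between pool 2 and pool 1 of the nonarthritic group (horizontal axis) and of the arthritic group (vertical axis), 1 point per gene. Grey squares are skeletal muscle genes, blue circles are the 10 members listed as shared with muscle and orange circles are the other 25 members. Muscle genes all lie to the right of 0 (16 of 16), as do 12 of 35 members and, of all genes, which are not drawn, 9910 of 22180.

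Markers of other cell types that the tissue could hold were read beside the members. Of 12 endothelial genes 0 fell and 2 rose, Tie1 (0.82) and Kdr (0.73), and Pecam1 stood at 0.03 ± 0.17. At an unadjusted p under 0.05, 1 endothelial gene was lower and 4 were higher. Of 11 macrophage genes 5 rose and 1 fell, Cd163 (-1.49), with Mpeg1 at 1.91 and Adgre1 at 0.52 ± 0.17 (adjusted p = 0.0772). Their summed signals were 14.58 and 14.42 against 14.84 and 14.92. Endothelium and macrophages also express Cd36, and macrophages also express Lpl, and both of these members fell. Nerve sheath genes fell in 5 of 7 cases with a median of -0.89, led by Cdh19, at least 2.18-fold lower, and 0 rose. Without adjustment, 6 were lower and 0 higher at p under 0.05. Of 13 skin and sebaceous gland genes, a tissue rich in Scd1 and Elovl6, 8 had nonarthritic means under the olfactory percentile, and Krt14 was among them. In that list limma called 1 gene lower and 0 higher, and at an unadjusted p under 0.05 it had 2 lower and 0 higher. The called gene was Epcam, whose means were under the percentile in both groups so that no fold is given. When a pool was omitted, 15, 11, 14 and 8 muscle genes and 2, 0, 1 and 1 nerve genes fell, and 2, 1, 1 and 0 macrophage genes rose. In those fits 0 endothelial genes rose, Cd163 passed in 0, and the skin list had 0, 0, 1 and 0 falls. The part of these cell types in the fall of the members was not tested.

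The rest of the adipocyte and lipid pathway was read in 7 further lists, chosen with earlier results of these data known. Of all genes, 6.62% fell and 8.72% rose, which is the background for each of these lists. Of the 114 measured genes in them outside the members, 37 fell (32.5%). The 11 that rose (9.65%) were near the share of all genes. Their 114 log2 fold changes had a median of -0.31. Omitting a pool gave 17, 7, 15 and 6 falls and 4, 2, 2 and 0 rises. Retnla, counted among secreted proteins of fat and also made by macrophages, was at least 45.9-fold lower, and close copies can share its probes.

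Of 18 adipogenic transcription factors and partners, 7 fell and 1 rose. Klf5, a factor needed early in adipogenesis, read 10.02 and 10.12 in nonarthritic pools and 8.12 and 8.08 in arthritic pools (-1.97 ± 0.15, adjusted p = 0.000296). Mlxipl, which encodes ChREBP, the glucose-responsive activator of lipogenic genes, was at least 2.46-fold lower, and Ppargc1a, a coactivator of mitochondrial genes that muscle also uses, at least 2.44-fold. Cebpb, an early adipogenic factor that inflammation also induces, rose from 8.77 and 8.24 to 9.28 and 9.96 (1.11 ± 0.26, adjusted p = 0.0263). The fits that omit a pool had 2, 1, 2 and 1 genes that fell and 0 rose in each fit.

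Among 13 other secreted proteins, 7 fell and 2 rose. Itih5, a matrix-stabilising protein abundant in fat, fell by 2.31 ± 0.24 and Sncg, gamma-synuclein, by 2.21 ± 0.25 on the log2 scale. Angptl4, a secreted inhibitor of lipoprotein lipase, read 9.93 and 10.52 against 12.03 and 11.93 and rose 3.38-fold (adjusted p = 0.00156). The peptide hormone gene Apln, apelin, rose by 1.82 ± 0.19. The enzyme Lpl fell while its inhibitor Angptl4 rose. Of the 13, 5, 1, 3 and 2 fell and 2, 1, 1 and 0 rose when a pool was omitted.

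Other droplet and triglyceride genes went both ways: 6 of 21 fell and 5 rose. The carboxylesterases Ces1f and Ces1d, which hydrolyse lipid esters, were at least 4.98-fold and at least 1.93-fold lower, and members of that family can share probes. Fitm1, a droplet-forming protein of muscle, fell by 2.00 ± 0.24. Plin2, the coat protein that most cell types put on their droplets, read 10.38 and 10.32 against 11.23 and 11.22 and rose by 0.88 ± 0.15 (adjusted p = 0.0079). Hilpda, a hypoxia-induced droplet protein that inhibits ATGL, rose by 0.78 ± 0.16 (adjusted p = 0.0155). The log2 fold changes of Plin1 and Plin2 differed by 3.81 (exact permutation p = 0.333). Omitting a pool, 3, 3, 3 and 1 of these genes fell and 0 rose in each fit.

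Of 18 genes for other steps of fatty acid synthesis, activation and uptake, 3 fell (16.7%) and 2 rose (11.1%). The share that rose was near the 8.72% of all genes, and the median was 0.15. Vldlr, a lipoprotein receptor of fat and muscle, fell by 1.46 ± 0.17, Pdk4, a kinase that holds back glucose oxidation, by 1.11 ± 0.27, and the sterol sensor partner Insig1 by 0.88 ± 0.16. Slc27a4, the fatty acid transporter FATP4, read 9.13 and 8.89 against 10.14 and 10.42 and rose by 1.27 ± 0.18 (adjusted p = 0.00297). Without each pool 1, 0, 1 and 0 fell and 1, 0, 0 and 0 rose.

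Hormone response genes fell in 8 of 19 cases and rose in 1. Lepr, the leptin receptor, read 10.17 and 10.05 against 7.85 and 7.15 (-2.61 ± 0.23, adjusted p = 0.000453). Npr3, which clears natriuretic peptides, fell by 2.40 ± 0.20, and Prkar2b, the main protein kinase A regulatory subunit of fat, by 1.50 ± 0.16 on the log2 scale. The gene that rose was Hcar2 (1.81 ± 0.17, adjusted p = 0.00058), the nicotinic acid receptor, which neutrophils and macrophages also carry. Of the 19, 3, 1, 3 and 1 fell and 1, 1, 1 and 0 rose when a pool was omitted.

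Of 15 brown and beige fat genes 4 fell and 0 rose, while 8 were lower and 0 higher at an unadjusted p under 0.05. The defining gene Ucp1 had means of 6.28 and 6.11, under the olfactory percentile in both groups. Those that fell most were Cox8b (-3.36 ± 0.35) and Cox7a1 (-2.54 ± 0.25), respiratory subunits that skeletal muscle also uses. In arthritic pool 2 Cox8b lay under the olfactory percentile of that array (6.56 against 6.94). Of 15 adipocyte progenitor genes 4 fell and 0 rose, while 8 were lower and 1 higher at an unadjusted p under 0.05. Fmo2 read 10.59 and 10.64 against 7.49 and 6.92 (-3.41 ± 0.21, adjusted p = 0.000136), and Cd55 (-1.44) and Dpp4 (-0.94) followed. The arthritic pool 2 value of Fmo2 was also just under that percentile (6.94). When a pool was omitted, 2, 0, 3 and 0 brown and beige genes and 1, 1, 1 and 1 progenitor genes fell.

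**Figure D4:**
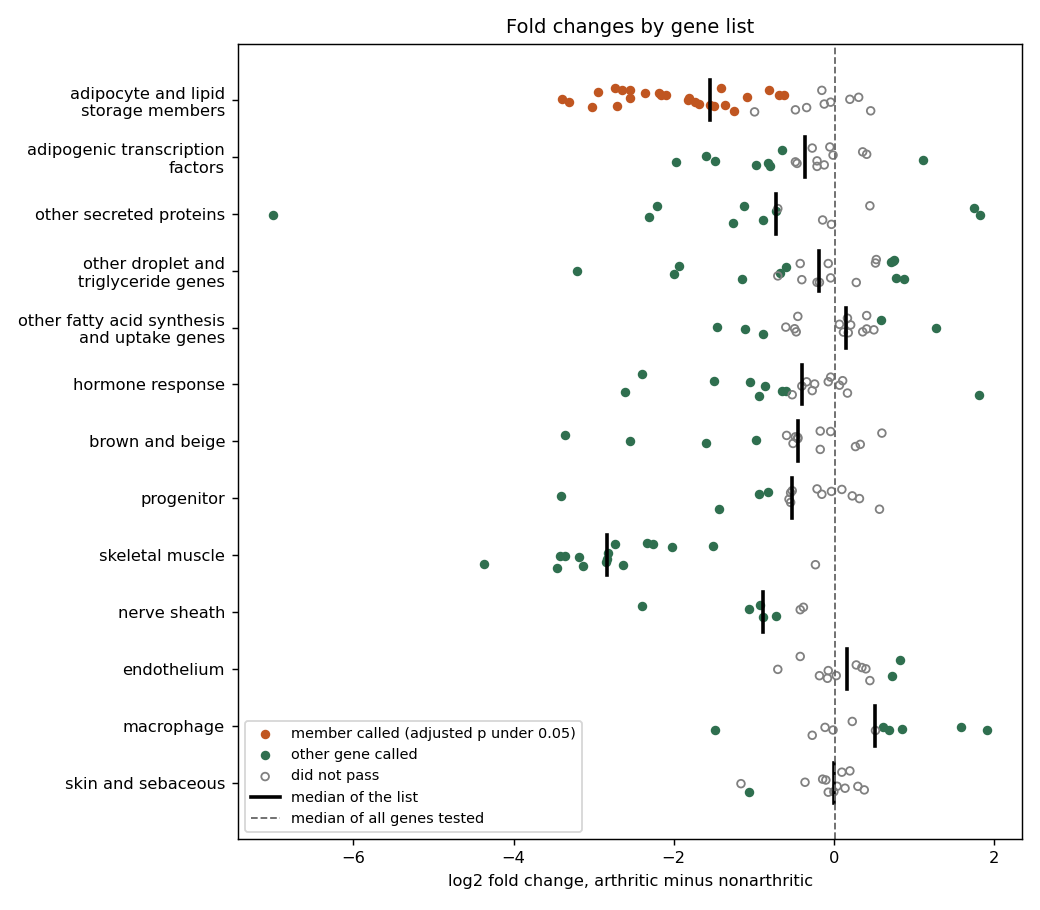
Log2 fold changes (horizontal axis, arthritic minus nonarthritic) of the members, of 7 other adipocyte and lipid lists and of 5 lists of other cell types, 1 point per gene with vertical scatter added for legibility; filled points passed at an adjusted p under 0.05, bars are list medians and the dashed line is the median of all genes. The member median of -1.55 lies between that of skeletal muscle genes (-2.83) and that of nerve sheath genes (-0.89).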

How the data were processed

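Total RNA (500 ng per array) from 4 synovium pools was hybridised to 4 Affymetrix MoGene 2.0 ST arrays. The deposited values are log2 signals per probe set. Per the submitters' processing notes the authors used RMA, Affymetrix Power Tools and Affymetrix Expression Console; their versions and parameters were not found in the labels. That the scale is log2 was read from the values (2.89 to 14.27). Array medians were 6.96 to 7.15, and the number of arrays limits the precision. A group mean under the mean 95th percentile of 1105 olfactory receptor genes on those arrays (6.77 to 7.36) counted as not above background. "At least" folds replace each array's lower value with that percentile where the percentile is higher.

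Genes were named from the platform table (23521 of 41345 probe sets have 1 symbol, 1814 several and 16010 none) and compared with limma 3.58.1 in R 4.3.3 (lmFit and eBayes, no block, 2-sided, Benjamini-Hochberg over all genes), tested on simulated data. The naming rule takes every measured member and allows, of each other list, up to 3 falling and 3 rising genes with the largest called changes, plus defining markers of other cell types. Ucp1, Mogat2 beside Dgat2, the gene pairs and the list of members shared with muscle were chosen after their values were seen. The members and lists were chosen with earlier results of these data known. Alternatives covered probe set averaging, a filter on dim genes, scaling, an intensity trend, a replicate block, each pool left out and the members shared with muscle left out.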

Additional observations from a re-analysis of the deposited data

How the results depend on the processing

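With each pool left out in turn, 6 to 20 members fell and 0 rose, and of the 114 other adipocyte and lipid genes 6 to 17 fell and 0 to 4 rose; each such fit has fewer arrays. Leaving out the 10 members listed as shared with muscle, an alternative added after the data were seen, left 17 falling members. The median member log2 fold change ran from -1.73 to -1.41 over all alternatives. In the other fits, 24 to 27 members and 28 to 49 other genes fell. The sign of Acaca, which was not called, turned when arrays were centred on their medians over all probe sets (0.06), also added after the data were seen, and without nonarthritic pool 1 (0.01; -0.07 to 0.01 over the fits with a pool left out); the cause was not tested. Of the 26 members that fell, 6 passed in all 4 fits with a pool left out (Cidec, Retn, Gpd1, Plin1, Pck1 and Plin4) and 4 in none of them (Fasn, Acacb, Agpat2 and Thrsp). With the pool number as a replicate block, 25 members fell, Acacb being lost (adjusted p = 0.0558), 28 other genes fell and 8 rose. Over all genes the block gave 2243 calls in place of 3402. The deviations of same-numbered pools from their group means had a correlation of 0.18 across genes, and the labels do not say that the numbers pair pools.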

Other observations

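Sterol genes were read in lists drawn up after the other values were seen. Among 16 measured cholesterol synthesis genes there was 1 rise and there were 0 falls (limma, adjusted p under 0.05). At an unadjusted p under 0.05, 2 were higher and 2 lower, and the median log2 fold change was 0.10. Of all 22180 genes, 3640 were higher and 2823 lower at that threshold. With adjustment 8.72% of all genes rose, against 6.25% of these cholesterol genes and 7.69% of the export list below. Neither list thus rose more often than genes at large. The cholesterol synthesis gene that rose was Ebp, a sterol isomerase (0.90 ± 0.16, adjusted p = 0.00927). Of 13 genes of lipid-laden macrophages and cholesterol export, 1 rose and 0 fell (4 higher and 0 lower at an unadjusted p under 0.05), with a median of 0.23. It was the exporter Abcg1, which read 9.34 and 9.28 in nonarthritic pools and 10.01 and 10.11 in arthritic pools (0.75 ± 0.16, adjusted p = 0.0155). With any pool left out, 0 genes of either list passed.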
